A study of Mus musculus with 6 samples.

Results

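p53, encoded by Trp53, and 9 genes that it is known to activate were followed in immortalized mouse pancreatic fibroblasts: Mdm2, Cdkn1a, Ccng1, Bax, Bbc3, Sesn2, Zmat3, Phlda3 and Trp53inp1. The 10 genes were chosen by name, as p53 and well-known targets, and all 10 are among the 14831 genes listed in the count table and among the 14289 tested. RNAseq had been done on 6 libraries, 3 labelled WT and 3 labelled KO (Gli2-/-;Gli3-/-), each from a separate well grown to confluence without any treatment. All cells came from a mixed strain background and from lines grown out of adult pancreas of mice with loxP-flanked Gli alleles, and the age of the mice was not given in the sources used here. Control cells had received an adenovirus for eGFP and a lentivirus for dsRed, and KO cells adenoviruses for eGFP and for Cre under the CMV promoter, before sorting by flow cytometry. The viruses therefore differ between the groups along with the genotype, and the 2 cannot be told apart. The wells of a group are not described as separately made lines, so p-values measure the spread between wells. How the cells had been immortalized is not given in the sources used here, and the p53 status of the cells is not given either.

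p53 is a transcription factor that is kept scarce by the ubiquitin ligase Mdm2 and accumulates after DNA damage and other stress, mostly through slower breakdown of the protein and not through more of its own RNA. It then switches on genes that halt the cell cycle, drive apoptosis, repair DNA and alter metabolism, among them Mdm2 itself, which closes a feedback loop. Loss of p53 or of its activator Arf is a common route by which cultured mouse fibroblasts become immortal. A p53 binding site is made of a pair of half-sites, each with 3 purines, a C, 2 bases that are A or T, a G and 3 pyrimidines, a pattern that reads the same on both strands.

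Because these genes are tied together by direct binding of p53, their proximal promoters were searched for that pattern. RefSeq windows of 300 bases, from 250 before to 50 after an annotated start (GRCm38.p6), were at hand for 8 of the 10 genes in 11 windows; Zmat3 and Trp53inp1 had none. A half-site without mismatch was present in 5 of the 11 windows (45.5%), 1 each for Cdkn1a, Ccng1, Bax, Mdm2 and Trp53, and in 8.36% of all 32851 windows of this length. Adjoining half-sites with at most 1 mismatch over all 20 bases were present in 2 of the 11 windows (18.2%), those of Cdkn1a and Ccng1. The same was found in 29 of all windows (0.0883%). These matches are a description, since the genes were chosen as p53 targets. They are shown because the 2 genes moved in opposite directions between the groups. Each is written 5′ to 3′ on the strand of the gene, with the matched 20 bases in capitals: Cdkn1a at chr17:29090908-29090967 on the plus strand and Ccng1 at chr11:40755442-40755501 on the minus strand.
Cdkn1a: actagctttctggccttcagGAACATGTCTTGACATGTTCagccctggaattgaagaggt
Ccng1: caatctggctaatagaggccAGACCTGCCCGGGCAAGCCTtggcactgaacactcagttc
The Cdkn1a match lies upstream of the first base of the upstream RefSeq start of that gene, and its last base is 2822 bases before the downstream RefSeq start. In Cdkn1a the first half-site matches without mismatch and the second with 1, and in Ccng1 the order is the other way round. The windows of Phlda3, Bbc3 and Sesn2 held no half-site, and Phlda3 had the largest change of the 10 genes (log2 fold change -0.33). Sequence outside the windows was not searched, nor were single half-sites with a mismatch, so a window without a match does not show that a gene lacks a p53 site. Whether a match goes with the size of a change was not tested. The single half-sites of Bax, Mdm2 and Trp53 are shown in the same way, with 10 bases in capitals: Bax at chr7:45467070-45467119 on the minus strand, Mdm2 at chr10:117710915-117710964 on the minus strand and Trp53 at chr11:69580264-69580313 on the plus strand.
Bax: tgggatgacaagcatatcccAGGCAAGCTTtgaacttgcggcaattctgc
Mdm2: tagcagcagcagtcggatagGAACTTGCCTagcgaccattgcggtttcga
Trp53: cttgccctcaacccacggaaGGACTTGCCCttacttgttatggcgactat

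Libraries held between 31728420 and 41035931 counts, and the 10 genes had between 571 and 16247 counts in a library, so none rested on sparse counts. The deleted genes were checked first: counts of Gli2 were 809, 944 and 868 with the WT label and 1932, 2316 and 1926 with the KO label, and Gli3 had 392, 416 and 398 against 1434, 1637 and 1404. Both were higher in the libraries labelled KO (log2 fold change 1.05 and 1.71), which goes against those labels. The study also examined Gli2 and Gli3 in its lines by qPCR and western blot, and those measurements were not used here. Counts per gene are summed over all exons and do not show which exons were transcribed, so both groups are named by label (labelled WT, labelled KO), every direction below is that of the labels, and no library was moved. Of 12 fibroblast markers 10 were in the table and 8 exceeded 10 CPM, with a summed level of 46640 to 49220 CPM with the WT label and 38730 to 40390 CPM with the KO label; of its defining markers Fap and Pdpn were not in the table. Its members differed unequally: Col1a1 averaged 15980 and 16110 CPM and Acta2 1893 and 1903 CPM, but Dcn 2643 and 904.7 CPM and Lum 11.67 and 0.24 CPM. Col3a1 (8970 and 4678 CPM), Pdgfra (301.5 and 162.1 CPM) and Pdgfrb (569.6 and 359.4 CPM) were lower with the KO label too. Col1a2 (13230 and 11590 CPM) and Vim (4285 and 3912 CPM) differed less, and Thy1 was nearly absent (0.05 and 0.39 CPM). Of 11 epithelial and acinar markers 5 were in the table, with sums of 20.2 to 22.66 CPM and 44.05 to 45.55 CPM, made up mostly of Krt7 (4.376 and 23.11 CPM on average), Cela1 (8.037 and 14.7 CPM) and Sox9 (8.508 and 6.033 CPM). Of 7 macrophage markers 4 were in the table, with sums of 55.59 to 60.79 CPM and 52.43 to 54.13 CPM, while Ptprc, Adgre1 and Itgam were not, and of 5 endothelial markers 0 were. The part of these differences in the results below was not tested, and in bulk RNA fewer cells of a type cannot be told apart from less RNA per cell.

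Differences in p53 and its targets between the groups were small and of both signs. Cdkn1a, Phlda3 and Trp53inp1 fell in the libraries labelled KO by 18.5 to 20.6%, Mdm2, Ccng1 and Bbc3 rose by 6.49 to 14.9%, and Trp53, Bax, Sesn2 and Zmat3 did not pass the test. In all, 6 of the 10 genes had an adjusted p under 0.05 in the quasi-likelihood test of edgeR (Benjamini-Hochberg adjustment over every gene tested). That threshold was passed by 58.7% of all genes, 29.9% being higher with the KO label and 28.8% being lower, so the share among the 10 was close to that of the whole table. At a change of at least 1.5-fold as well, 0 of the 10 genes passed, against 17.7% of all genes, 11.6% higher and 6.1% lower. That count was also 0 at an unadjusted p under 0.05, by DESeq2 and by limma-voom. The libraries of the 2 groups did not overlap for 5 of the 10 genes, 2 higher and 3 lower, against 64.2% of all genes. The median log2 fold change was -0.0139 over the 10 genes and 0.00197 over all genes, and the median of its absolute size 0.102 against 0.219. All 10 genes stood above the median level of the genes tested, and no comparison with genes of like level was made.

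**Figure D1:**
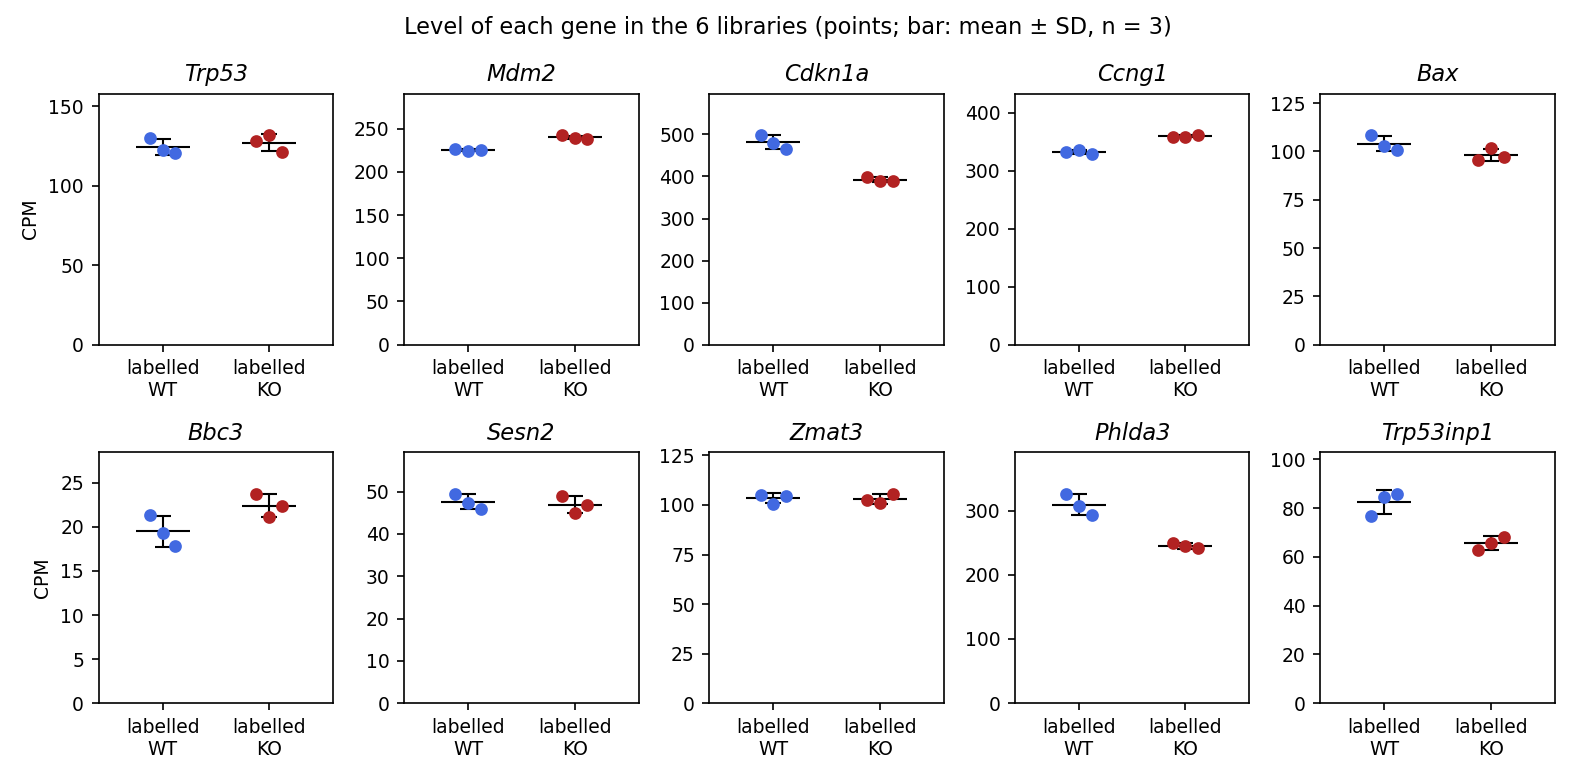
Level of Trp53 and the 9 targets in each library, in CPM (counts-per-million, y axes from 0, a scale for each gene); points are the 3 libraries labelled WT (blue) and the 3 labelled KO (red), bars the mean ± SD. The groups are apart for Cdkn1a, Phlda3 and Trp53inp1 (lower in labelled KO) and for Mdm2 and Ccng1 (higher), and overlap for the other 5 genes.

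Trp53, on chromosome 11 (69580359 to 69591873, plus strand; positions are from GENCODE M21, GRCm38), had 130.0, 122.5 and 120.8 CPM with the WT label and 128.3, 131.6 and 121.3 CPM with the KO label. CPM here are counts scaled to a common library size (counts-per-million) after TMM normalization. The 2 groups overlapped, and the log2 fold change was 0.03 (95% CI -0.0539 to 0.116, adjusted p = 0.518 in edgeR's quasi-likelihood test). The interval lies well inside a 1.5-fold change. Per kilobase of merged exons Trp53 stood at 31.08 CPM over all 6 libraries, above 89.6% of the genes tested. RNA level does not report p53 protein or its activity, and neither was measured. A processed pseudogene, Trp53-ps on chromosome 17 (54419680 to 54420841), was not listed, and reads from it that were counted on Trp53 could not be told apart.

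Mdm2, on chromosome 10 (117688875 to 117710758, minus strand), encodes the ligase that marks p53 for breakdown. It had 226.8, 224.6 and 225.4 CPM with the WT label and 242.3, 239.8 and 238.6 CPM with the KO label. The lowest library labelled KO lay above the highest labelled WT, and the means were 225.6 ± 1.12 and 240.2 ± 1.92 CPM (SD, n = 3 each). The rise of 6.49% (log2 fold change 0.09, SE 0.0271, adjusted p = 0.0118 by edgeR) was larger than the spread between wells. Without labelled WT library 2 the adjusted p was 0.0515.

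The arrest genes moved apart. Cdkn1a, on chromosome 17 (29090976 to 29100727, plus strand), encodes p21, the inhibitor of cyclin-dependent kinases through which p53 stops cells in G1. It had 497.7, 480.7 and 465.6 CPM with the WT label and 398.5, 389.9 and 388.8 CPM with the KO label. Every library labelled KO was below every library labelled WT, and the level fell by 18.5% (log2 fold change -0.29, SE 0.0312, 95% CI -0.363 to -0.227, adjusted p = 4.21e-06 by edgeR). It remained among the highest-expressed genes in both groups: at 122.9 CPM per kilobase over all libraries it exceeded 98.1% of the genes tested. Counted against Trp53 in the same library, there were 3.83, 3.92 and 3.86 Cdkn1a counts for each Trp53 count with the WT label and 3.1, 2.96 and 3.21 with the KO label. Of its exon bases 7.68% overlap an unlisted gene on the opposite strand, and whether counting used strand is not given in the sources used here.

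Ccng1, on chromosome 11 (40748552 to 40755311, minus strand), encodes cyclin G1, which binds a protein phosphatase subunit and takes part in the regulation of Mdm2. Its levels were 332.0, 335.1 and 329.1 CPM with the WT label and 358.4, 357.8 and 360.7 CPM with the KO label. The groups were apart, with the narrowest spread of the 10 genes in the libraries labelled KO (coefficient of variation 0.42%), and the rise was 8.11% (log2 fold change 0.11, SE 0.0267, adjusted p = 0.00288 by edgeR). Ccng1 and Cdkn1a, the 2 genes with a near-complete p53 site in the window searched, thus differed in opposite directions.

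Of the genes that promote cell death, Bbc3 rose and Bax did not pass. Bbc3, on chromosome 7 (16308393 to 16318205, plus strand), encodes Puma, which frees Bax and Bak from their inhibitors at the mitochondrion. It was the least abundant of the 10 in CPM, with 21.35, 19.26 and 17.89 CPM with the WT label and 23.75, 21.17 and 22.33 CPM with the KO label. Labelled KO library 2 was below labelled WT library 1, so the groups overlapped. The rise of 14.9% (log2 fold change 0.20, SE 0.0678, adjusted p = 0.0227 by edgeR) rested on single wells: adjusted p was 0.101 without labelled KO library 1, 0.0755 without labelled WT library 2 and 0.103 without labelled WT library 3.

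Bax, on chromosome 7 (45461697 to 45466898, minus strand), encodes the protein that opens the outer mitochondrial membrane. It had 108.3, 102.9 and 100.6 CPM with the WT label and 95.65, 101.6 and 97.27 CPM with the KO label. Labelled KO library 2 lay above labelled WT library 3, so the groups overlapped, and the log2 fold change was -0.08 (SE 0.0372) with an unadjusted p of 0.0493 and an adjusted p of 0.0785 by edgeR. Adjusted p by edgeR was 0.0475 without labelled KO library 2 and 0.0418 without labelled WT library 3. These were the only 2 of 14 alternatives in which Bax passed. Upper-quartile scaling gave a log2 fold change of -0.024 and an adjusted p of 0.604 by edgeR, and total-count scaling -0.047 and 0.312. An unlisted gene on the same strand covers 12.2% of the exon bases of Bax, and reads there could have been left out or split.

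Phlda3 and Trp53inp1 fell together with Cdkn1a. Phlda3, on chromosome 1 (135766119 to 135769136, plus strand), encodes a small pleckstrin homology domain protein that competes with Akt for membrane lipids. It had 326.0, 307.2 and 293.3 CPM with the WT label and 249.5, 245.0 and 240.9 CPM with the KO label. The groups were apart and the level fell by 20.6% (log2 fold change -0.33, SE 0.0376, adjusted p = 7.51e-06 by edgeR). Per kilobase it was the most abundant of the 10, at 177.7 CPM over all libraries, above 98.7% of the genes tested.

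Trp53inp1, on chromosome 4 (11156431 to 11174379, plus strand), encodes a nuclear and autophagosomal protein that favours cell death and arrest. It had 76.74, 84.38 and 85.8 CPM with the WT label and 62.61, 65.85 and 68.22 CPM with the KO label. The highest library labelled KO lay below the lowest labelled WT, and the level fell by 20.4% (log2 fold change -0.33, SE 0.0465, adjusted p = 5.37e-05 by edgeR). Phlda3 was highest and Trp53inp1 lowest in labelled WT library 1, so the 2 genes did not follow each other among the wells of that group.

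Sesn2 and Zmat3 gave values near 0. Sesn2, on chromosome 4 (132492032 to 132510501, minus strand), encodes a stress protein that restrains mTORC1 and is also induced by the integrated stress response. It had 49.49, 47.41 and 45.95 CPM with the WT label and 48.91, 44.97 and 46.86 CPM with the KO label, with a log2 fold change of -0.022 (95% CI -0.117 to 0.0723, adjusted p = 0.683 by edgeR). Zmat3, on chromosome 3 (32334792 to 32366014, minus strand), encodes a zinc finger RNA-binding protein that regulates splicing. It had 105.0, 100.5 and 104.7 CPM with the WT label and 102.6, 100.9 and 105.6 CPM with the KO label, with a log2 fold change of -0.0055 (95% CI -0.0773 to 0.0663, adjusted p = 0.9 by edgeR). For both genes the groups overlapped and the sign changed with the scaling used, so no direction is given.

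**Figure D2:**
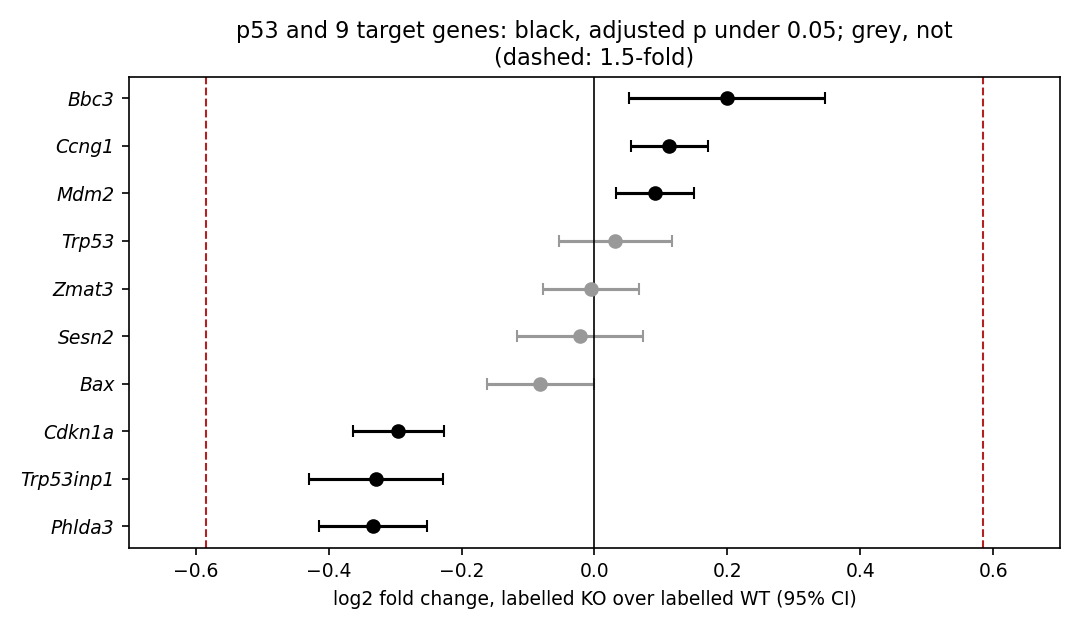
Log2 fold change of each gene, labelled KO over labelled WT (x axis), with its unadjusted 95% confidence interval; black points had an adjusted p under 0.05, grey points did not, and dashed lines mark a 1.5-fold change. The 10 estimates run from -0.33 (Phlda3) to 0.20 (Bbc3), and every interval lies between the dashed lines.

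Among wells of a group the 10 genes varied little, with coefficients of variation from 0.42 to 8.94%, the widest for Bbc3 in the libraries labelled WT. Labelled WT library 1 had the highest level of its group for 8 of the 10 genes and labelled WT library 3 the lowest for 7. In the libraries labelled KO no such order stood out: library 1 was highest for 5, library 2 for 2 and library 3 for 3. The summed level of the 9 targets was 1743, 1702 and 1668 CPM with the WT label and 1582, 1567 and 1569 CPM with the KO label, a sum carried mostly by Cdkn1a, Ccng1, Phlda3 and Mdm2. Per kilobase of exon, the order over all libraries ran from Phlda3 (177.7 CPM) through Cdkn1a (122.9), Ccng1 (98.39), Bax (64.12), Mdm2 (45.82), Trp53 (31.08), Sesn2 (13.6), Trp53inp1 (11.42) and Bbc3 (9.866) to Zmat3 (9.027). All 10 stood above the median of 5.11 CPM per kilobase over the genes tested.

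The regulators of p53 also moved both ways. Their list also held the p53 relatives Trp63 and Trp73, and Trp73 was not in the table. Of 19 tested (of 20 listed), 2 rose and 10 fell, where 29.9% and 28.8% of all genes did (58.7% in all). The median log2 fold change of the 19 was -0.143. Mdm4, which binds p53 and blocks its activity, had 169.4, 186.2 and 204.0 CPM with the WT label and 136.0, 148.7 and 166.7 CPM with the KO label, and fell by 0.31 on the log2 scale (SE 0.0711, adjusted p = 0.00224 by edgeR). The groups were apart, although wells of each group varied more than for Cdkn1a or Ccng1. Cdkn2a, whose gene gives both p16 and the Mdm2 inhibitor Arf, fell from 50.55 ± 2.64 to 43.08 ± 0.341 CPM (SD, n = 3 each; log2 fold change -0.23, adjusted p = 0.000463 by edgeR), and gene counts do not separate the 2 products. Its transcripts were thus present in both groups. Ppm1d, a p53-induced phosphatase that switches the response off, gave 22.85 ± 1.14 and 22.36 ± 1.16 CPM (SD, n = 3 each; adjusted p = 0.69 by edgeR).

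At 1.5-fold or more, 1 of the 19 genes of this list rose and 1 fell, where 11.6% and 6.1% of all genes did. Chek1, a kinase of the replication checkpoint that is itself expressed in dividing cells, had 4.627, 3.493 and 3.571 CPM with the WT label and 8.84, 7.007 and 6.119 CPM with the KO label (log2 fold change 0.91, SE 0.146, adjusted p = 0.00015 by edgeR). Trp63, the p53 relative of epithelial stem cells, was low throughout, with 6.669, 6.718 and 6.704 CPM against 3.05, 3.528 and 3.12 CPM (log2 fold change -1.04, SE 0.095, adjusted p = 1.04e-06 by edgeR). It carries no symbol in the deposited table and was found by its Ensembl identifier.

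Other known p53 targets also moved both ways, with larger single changes than the 10 genes had. Of 52 tested (of 54 listed; Perp and Trp53i11 were not in the table), 23 rose and 15 fell, where 29.9% and 28.8% of all genes did. By at least 1.5-fold 10 rose and 4 fell, where 11.6% and 6.1% of all genes did. The median log2 fold change was 0.062 and the median of its absolute size 0.232, near the 0.219 of all genes.

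The same shares of all genes, 29.9% higher and 28.8% lower, are the background for the groups of targets that follow. Among 10 further genes listed as arrest targets 4 rose and 3 fell, against 58.7% called either way over the whole table. Ptprv, a receptor tyrosine phosphatase, fell the most of the 52, from 15.73, 17.32 and 18.11 CPM to 3.417, 4.391 and 4.544 CPM (log2 fold change -2.05, SE 0.098, adjusted p = 2.43e-09 by edgeR). Gadd45a, a stress-induced inhibitor of cyclin B1-Cdk1, fell from 62.6 ± 5.25 to 36.34 ± 2.46 CPM (SD, n = 3 each), although 19.1% of its exon bases are shared with a listed gene of the opposite strand. These 2 moved as Cdkn1a did.

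Of the genes listed as arrest targets, Ckap2, Gtse1 and Rprm rose by 1.5-fold. Ckap2, a spindle protein of dividing cells, rose from 19.45 ± 3.26 to 48.74 ± 4.05 CPM (SD, n = 3 each). Gtse1, a G2 protein that holds p53 in the cytoplasm, rose from 24.23 ± 3.04 to 40.78 ± 1.21 CPM (SD, n = 3 each). Rprm, which arrests cells in G2, stayed under 2 CPM in every library, at means of 0.852 and 1.684 CPM. Both Ckap2 and Gtse1 are expressed mainly in G2 and mitosis, and both are counted above among the targets that rose. Btg2, an antiproliferative gene, rose from 31.95 ± 0.762 to 36.56 ± 2.2 CPM (SD, n = 3 each; adjusted p = 0.00442 by edgeR).

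Of 12 further apoptosis targets tested, 6 rose and 3 fell (58.7% of all genes were called either way). Steap3, a metalloreductase of iron uptake, rose from 19.3 ± 0.91 to 46.89 ± 2.27 CPM (SD, n = 3 each; log2 fold change 1.28, adjusted p = 4.41e-10 by edgeR). Among 3 death receptor genes of the list 2 fell. Eda2r, a receptor of the tumour necrosis factor family, fell from 74.77 ± 1.27 to 42.14 ± 1.04 CPM (SD, n = 3 each; log2 fold change -0.83, adjusted p = 8.58e-10 by edgeR), and Fas from 57.0 ± 2.14 to 41.38 ± 0.877 CPM (log2 fold change -0.46, adjusted p = 6.26e-07). The third, Tnfrsf10b, a receptor for the ligand TRAIL, gave 105.5 ± 5.57 and 109.5 ± 1.43 CPM (SD, n = 3 each; log2 fold change 0.05, adjusted p = 0.253 by edgeR) with overlapping groups, and is named after its value was seen. Pmaip1, which encodes Noxa, a partner of Puma in neutralising Mcl1, rose from 15.12 ± 1.14 to 17.54 ± 0.84 CPM (SD, n = 3 each; adjusted p = 0.0129 by edgeR), a call that leaving out single wells took to an adjusted p of up to 0.0735.

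Of 8 DNA repair targets 1 rose and 3 fell, against 29.9% and 28.8% of all genes. Fancc, of the Fanconi anaemia core complex, fell by 0.61 on the log2 scale (adjusted p = 4.73e-07 by edgeR). Of its exon bases 16.4% overlap an unlisted antisense gene. Ddb2, which recognises ultraviolet damage, gave 8.874 ± 0.678 and 9.096 ± 0.824 CPM (SD, n = 3 each, adjusted p = 0.721 by edgeR). Of the exon bases of Ddb2 23.8% are shared with a listed opposite-strand gene. Of 12 metabolic and redox targets 6 rose and 3 fell, against the same shares. Prkab2, a subunit of AMP-activated kinase, rose from 37.76 ± 1.12 to 61.82 ± 3.47 CPM and Gpx1, a glutathione peroxidase, from 80.47 ± 5.72 to 122.2 ± 5.2 CPM (SD, n = 3 each).

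Gls2, a glutaminase, rose from 1.238 to 2.241 CPM on average. Sesn1, the paralogue of Sesn2, fell from 66.93 ± 1.83 to 54.37 ± 0.595 CPM (SD, n = 3 each; log2 fold change -0.30, adjusted p = 1e-05 by edgeR), so the 2 sestrins gave different calls; the difference between them was not tested. Tigar, a phosphatase that slows glycolysis, was at the threshold (log2 fold change 0.17, adjusted p = 0.0496 by edgeR) and lost the call in 8 of 14 alternatives.

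Of 10 secreted and membrane targets 6 rose and 3 fell, against 29.9% and 28.8% of all genes. Igfbp3, which binds insulin-like growth factors outside the cell, rose the most of all 52, from 6.318, 7.524 and 8.928 CPM to 28.35, 28.94 and 30.38 CPM (log2 fold change 1.94, SE 0.0872, adjusted p = 1.29e-09 by edgeR). Notch1, a receptor (7.5% of its exon bases shared with a listed opposite-strand gene), rose by 0.91 and Cx3cl1, a chemokine, by 0.88 on the log2 scale. Igfbp3, Notch1 and Cx3cl1 are also controlled by many other pathways, and none of these was measured here.

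The BCL-2 family, which sets the threshold for Bax, was tested for 10 of 13 genes (Bcl2a1d, Bik and Hrk were not in the table), of which 2 rose and 6 fell (29.9% and 28.8% of all genes), with a median log2 fold change of -0.149. Falls were found among both kinds of member. The survival genes Bcl2 (49.54 ± 1.35 to 37.85 ± 1.27 CPM; SD, n = 3 each) and Bcl2l1 (104.5 ± 1.22 to 94.16 ± 1.32 CPM) fell, and so did the death-promoting Bid, by 0.32 on the log2 scale, and Bcl2l11, by 0.23. Mcl1, a survival gene, rose from 147.4 ± 2.1 to 161.4 ± 4.52 CPM (SD, n = 3 each). Bok, an effector related to Bax, was the gene of the family that passed 1.5-fold, from 9.126, 8.39 and 8.207 CPM to 15.96, 15.21 and 14.57 CPM (log2 fold change 0.83, SE 0.0684, adjusted p = 4.1e-07 by edgeR). Bid and Bcl2l11 are named here after their values were seen, and 17.7% of the exon bases of Bid are shared with a listed opposite-strand gene.

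**Figure D3:**
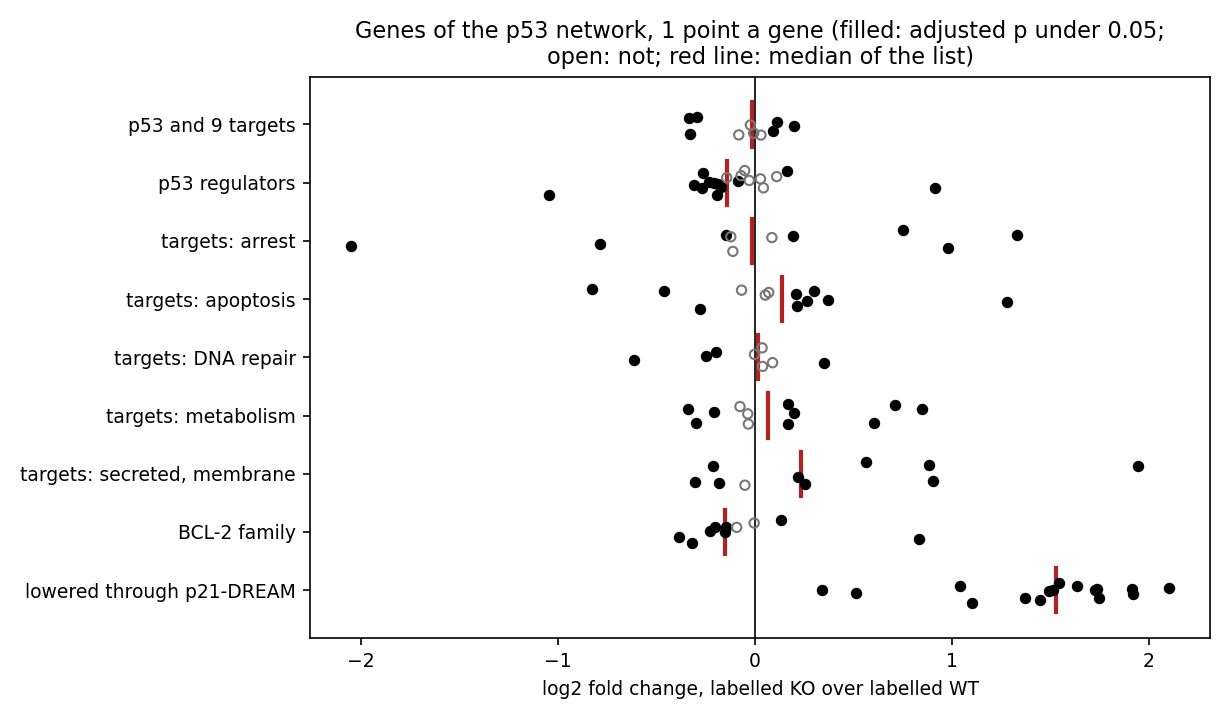
Log2 fold change, labelled KO over labelled WT (x axis), of every tested gene of each list (1 point a gene; vertical position within a list is arbitrary); filled points had an adjusted p under 0.05, open points did not, and the red line is the median of the list. The 10 genes lie within -0.33 and 0.20, the other p53 targets within -2.05 and 1.94, and the genes lowered through p21 and DREAM all lie above 0.

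p21, the product of Cdkn1a, restrains the cyclin-dependent kinases that keep the DREAM repressor complex apart, so that p53 lowers many genes of S phase, G2 and mitosis through it. All 16 genes of that kind that were listed rose in the libraries labelled KO, with a median log2 fold change of 1.53, and 14 of them by at least 1.5-fold; Mcm2 (0.52) and Pcna (0.34), named after their values were seen, rose by less. Over all genes 29.9% rose, and 11.6% by at least 1.5-fold. None of the 16 had overlapping groups, against 64.2% of all genes without overlap. Among the leading genes, Ccnb1, cyclin B1, had 10.94, 8.3 and 7.33 CPM with the WT label and 36.43, 33.43 and 30.41 CPM with the KO label (log2 fold change 1.92, SE 0.108, adjusted p = 1.15e-08 by edgeR). Ccnb2, cyclin B2, rose from 4.494 ± 0.431 to 19.22 ± 1.77 CPM (SD, n = 3 each), the largest change of the 16 (log2 fold change 2.10, SE 0.0924). Cdc25c, the phosphatase that activates Cdk1, rose from 1.545 ± 0.294 to 5.818 ± 0.369 CPM (log2 fold change 1.92, SE 0.134).

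These 16 are also general genes of dividing cells, and cell cycle genes were already known to differ in these libraries, so their direction is no independent evidence on p21. Their summed level was 318.0, 263.0 and 259.0 CPM with the WT label and 616.8, 595.7 and 523.1 CPM with the KO label. Library 1 had the highest sum in each group. Within each group Cdkn1a ran in the same order as these sums, with 497.7, 480.7 and 465.6 CPM with the WT label. It had 398.5, 389.9 and 388.8 CPM with the KO label. Wells of a group with more Cdkn1a thus had the higher sum, unlike the order between the groups, and this was not tested. The fraction of cells in each phase and the density of each well were not measured, and their part in these differences was not tested.

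**Figure D4:**
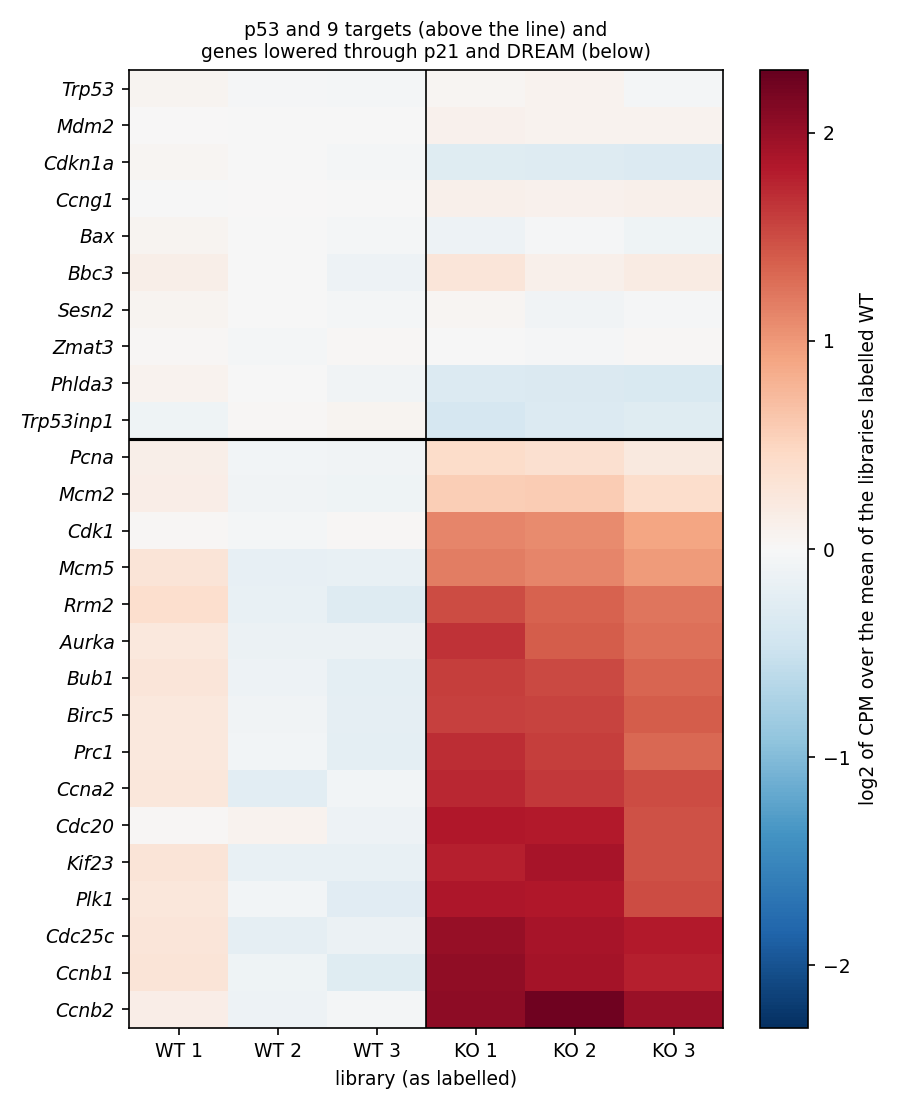
Log2 of the CPM in each library over the mean of the 3 libraries labelled WT (colour scale), for Trp53 and the 9 targets (above the line) and the 16 genes lowered through p21 and DREAM (below), with libraries as columns. The 10 genes are pale throughout, with Cdkn1a, Phlda3 and Trp53inp1 light blue in the libraries labelled KO. The 16 genes below lie above the mean of the libraries labelled WT in all 3 libraries labelled KO. Pcna and Mcm2 are pale there, and the others are redder.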

How the data were processed

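The authors deposited raw read counts per gene and log2 CPM from limma (voom), equal to the log2 of the count plus 0.5 scaled by effective library size; the submitters' processing notes name STAR 2.7.2b, featureCounts, limma and GRCm38.p6. The deposited tables leave out genes of low count, and whether counting used strand is not given in the sources used here. Testing used edgeR 4.0.16 under R 4.3.3 (TMM, filterByExpr, quasi-likelihood F test, Benjamini-Hochberg adjustment over 14289 genes) on 3 libraries against 3. SE was taken from the fold change and its F statistic. CPM use the TMM-scaled library size, and CPM per kilobase the merged exons of GENCODE M21. Totals were 31728420 to 41035931 counts a library, and every replicate pair differed by more than sampling noise. Intervals cover the spread between wells.

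The 10 genes, lists and markers were chosen with earlier results of these data known. Beside the 10 genes, Gli2 and Gli3, the text names per list up to 3 of the largest changes each way at an adjusted p under 0.05 and 1.5-fold, given non-overlapping groups and at least 50 counts in each library of the higher group, plus 12 fixed genes (Cdkn2a, Mdm4, Ppm1d, Btg2, Fas, Pmaip1, Sesn1, Ddb2, Tigar, Bcl2, Bcl2l1 and Mcl1). Outside this rule it names Bid, Bcl2l11, Tnfrsf10b, Mcm2 and Pcna, and marker genes beside their sums. Alternatives were scaling by total counts, upper quartile or RLE, different filters and thresholds, DESeq2 1.42.0, limma 3.58.1 on counts and on the deposited log2 values, and leaving out each library. An exact permutation test of 3 against 3 cannot go below p = 0.1 and was not used. Further libraries named in the supplement were not analysed here.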

Additional observations from a re-analysis of the deposited data

How the results depend on the processing

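Of the 10 genes, between 4 and 7 passed the adjusted p under the alternatives run (DESeq2 and limma included), with 4 without labelled WT library 2 and at an adjusted p under 0.01, and 0 passed 1.5-fold in all 16. Cdkn1a, Phlda3, Trp53inp1 and Ccng1 kept their call and direction in every alternative fit. Among all genes named, the sign turned for 4 that did not pass, and the cause was not tested. These were Sesn2 and Zmat3, of the 10 genes, and Ppm1d and Ddb2, of the other lists. Trp53 and Bax kept their sign throughout. The log2 fold change of Sesn2 was 0.0123 with total-count and 0.0346 with upper-quartile scaling. It ran from -0.0581 to 0.00709 when single libraries were left out. For Zmat3 the values were 0.029 and 0.0514, and -0.0274 to 0.00792, with 0.00178 at 10 or more counts in every library. For Ppm1d they were 0.00665 and 0.0288, and -0.0673 to 0.0138. With single libraries left out, Ddb2 ran from -0.0439 to 0.103. Upper-quartile scaling shifted the median of all genes by 0.0569. Counts over the other lists, recomputed under the same alternatives after seeing the data, ran from 34 to 41 of the 52 other p53 targets, 10 to 13 of the 19 regulators, 7 to 8 of the 10 BCL-2 family genes and 14 to 15 of the 16 genes lowered through p21 and DREAM at 1.5-fold. Over the whole table, from 7474 of 14831 genes (DESeq2) to 8545 of 14831 (no count filter) had an adjusted p under 0.05 in the alternative fits. These are the background for the counts of the lists and of the 10 genes. The share of all genes at 1.5-fold was computed for the main fit only, at 17.7%. No paired analysis was possible because the labels give no replicate numbers. With 3 wells a group, the 95% intervals of the 4 of the 10 genes that did not pass (Trp53, Bax, Sesn2 and Zmat3) ran from -0.162 (Bax) to 0.116 (Trp53).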
